A study of Mus musculus with 8 samples.

Results

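H3K27ac, a histone acetylation of active promoters and enhancers, was examined at the promoters of ribosomal protein genes in P5424 cells, a mouse line that resembles T cell precursors. Members were protein-coding genes of the RefSeq annotation of GRCm38 with a symbol that starts with Rpl or Rps and goes on with a digit, together with *Rplp0*, *Rplp1*, *Rplp2* and *Rpsa*. The Rps6k kinase genes and names with -ps were left out. This took 89 of 21900 protein-coding genes. Of the 89, 77 encode core proteins of the cytosolic ribosome, 46 of the large subunit (Rpl) and 31 of the small subunit (Rps). The other 12 encode paralogs, gene copies or a binding partner and are described apart.

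The study deleted IkE120, an enhancer about 120 kb upstream of *Ikzf1*, the gene of the lymphoid transcription factor Ikaros. The groups were wild-type (wt) P5424 cells and ΔIkE120 P5424 cells, a clone in which CRISPR/Cas9 removed the enhancer from both alleles. Each group had 1 ChIP-seq library and 1 deposited list of broad peaks, so no SD or p-value can be given, and every difference below is a difference between 2 libraries. The depth of the libraries is unknown, and whether these cells had been stimulated with PMA/ionomycin was not stated for ChIP-seq. The wt list held 34553 peaks with a median length of 603 bp, and the ΔIkE120 list 29902 peaks with a median of 628 bp. About 120 kb upstream of *Ikzf1*, the wt list had a peak of 1644 bp and the ΔIkE120 list a peak of 712 bp. The authors' peak caller gave the shorter ΔIkE120 peak the higher fold enrichment, 3.74 against 2.58 in wt. Its −log10 q-value, a false discovery rate on a log scale, was also higher, at 12.0 against 9.83. The wt peak covered all 252 bases of the locus that the methods give for IkE120, and no ΔIkE120 peak covered any of them, the nearest beginning 78 bp beyond the locus. Both lists had a peak within 1 kb of the start of all 12 T precursor markers tested (*Cd3d*, *Cd3e*, *Cd3g*, *Lck*, *Ptcra*, *Thy1*, *Bcl11b*, *Tcf7*, *Gata3*, *Notch1*, *Rag1* and *Rag2*). Of the B lineage genes, *Ebf1* had a peak in both lists, and *Cd79a*, *Cd79b*, *Ms4a1* and *Pax5* had none. Of 5 myeloid genes, *Mpo* had a peak in wt only, and *Csf1r*, *Lyz2*, *Itgam* and *Cebpa* had none in either list. The embryonic stem cell genes *Pou5f1*, *Nanog* and *Zfp42* had none.

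Ribosomal proteins join ribosomal RNA to form the subunits of the ribosome, and growing cells transcribe their genes at high and similar rates. Their mRNAs typically begin with a C and a run of pyrimidines, the terminal oligopyrimidine (TOP) tract, through which mTOR signalling controls their translation. H3K27ac marks the nucleosomes beside an active transcription start, while the start itself is often free of nucleosomes. In T cell development, loss of some ribosomal proteins activates p53, and *Rpl22* is needed for the αβ lineage.

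Nearly all core ribosomal protein genes carried an H3K27ac peak at the start in both lists. A gene was counted when a peak came within 1 kb of its start, the 5′ end of the RefSeq gene. Of the 89 members, 79 (88.8%) had a wt peak and 78 (87.6%) a ΔIkE120 peak, and the same 78 had both. Over 21536 protein-coding genes with a known strand, the shares were 44.5% in wt, 43.8% in ΔIkE120 and 43.4% in both. Among the core genes, 74 of 77 had a wt peak (96.1%) and 73 a ΔIkE120 peak (94.8%). Both subunits were alike, with wt peaks at 44 of 46 large subunit genes and 30 of 31 small subunit genes, and ΔIkE120 peaks at 43 and 30. The paralogs and partners stood apart from the core, as 5 of 12 had a peak, the same number in each list. This share, 41.7%, was near that of all genes.

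Other genes of the translation apparatus were covered about as often. Of 78 genes for proteins of the mitochondrial ribosome, 74 had a peak in each list (94.9%). Of 71 genes with a symbol that starts with Eif or Eef and goes on with a digit, 62 had a peak in each list (87.3%). They are called initiation and elongation factor genes here, although a choice by symbol can also take regulators of these factors. Peaks were also present in both lists at *Fau*, which encodes a ribosomal protein fused to a ubiquitin-like sequence, and at *Rack1*, which encodes a protein bound to the small subunit. All 15 genes listed for other TOP mRNAs had a peak in both lists. Among them were *Eef1a1* and *Eef2*, which encode elongation factors, and *Npm1*, which encodes a nucleolar chaperone. Several of the 15, *Eef1a1* and *Eef2* included, also count among the factor genes, so the groups overlap. Of 17 ribosome biogenesis genes, 16 had a peak in both lists. The exception was *Ubtf*, which encodes a factor of RNA polymerase I transcription, with its nearest peak at a distance of 4601 bp (wt) and 4617 bp (ΔIkE120). A peak at the start was thus shared by nearly all parts of this apparatus and was not particular to the cytosolic ribosome.

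**Figure D1:**
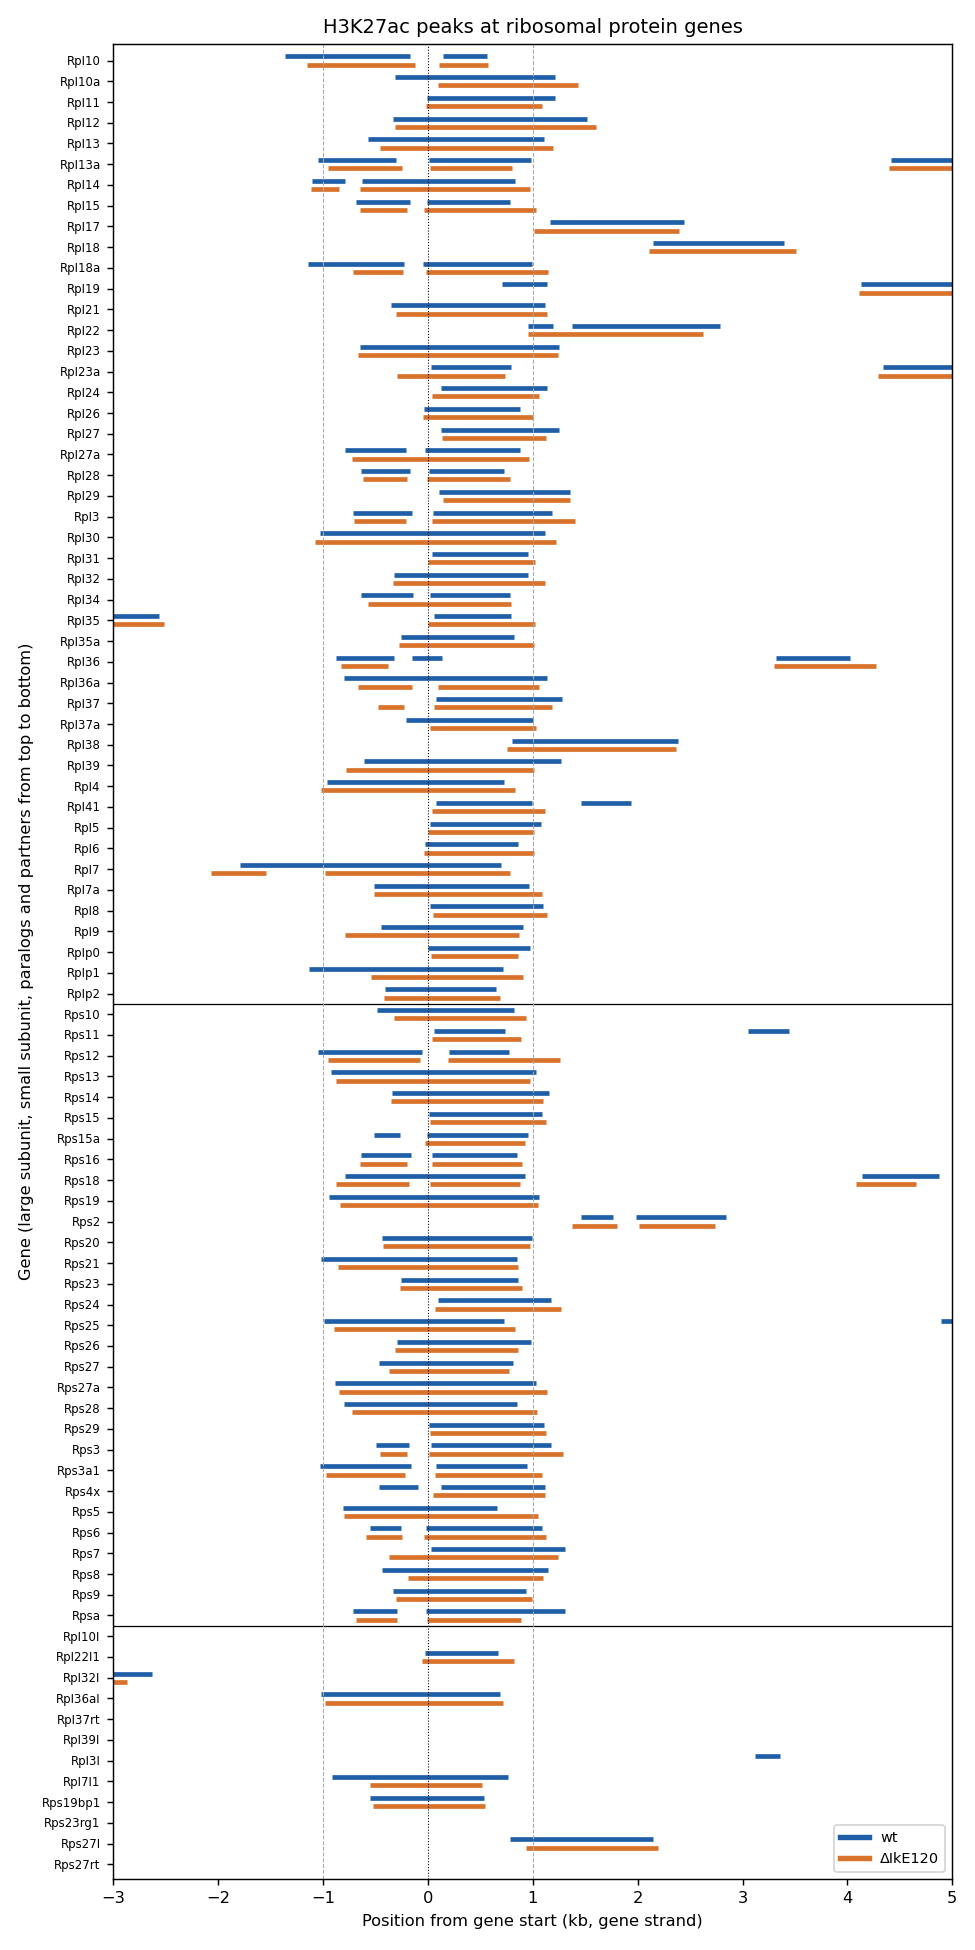
H3K27ac peaks at members, drawn from 3 kb before to 5 kb after the gene start in the direction of the gene, with wt above ΔIkE120 in each line and dashed lines at 1 kb on each side. Blocks from top to bottom are large subunit genes, small subunit genes, and paralogs and partners; peaks further away than 5 kb are not drawn.

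By the median, the peaks of the members were longer than those of all genes with a peak and ranked high in their own list. The nearest peak had a median length of 1206 bp over the core genes in wt (quartiles 964 and 1566 bp) and 1177 bp in ΔIkE120 (1027 and 1609 bp). Over all genes with a peak, the medians were 1057 and 1040 bp. In length, the median core peak stood at percentile 83.7 of the wt list and 82.2 of the ΔIkE120 list, against 77.3 and 75.8 for all genes with a peak. The authors' peak caller gave each peak a fold enrichment and a −log10 q-value, its false discovery rate on a log scale. For the core peaks the median −log10 q was 16.6 (wt) and 19.2 (ΔIkE120), at percentiles 91.5 and 92.8 of the lists, and all genes with a peak had medians at percentiles 83.7 and 81.9. By fold enrichment the core did not stand far from other promoters, with medians of 4.23 in wt and 4.42 in ΔIkE120 against 4.12 and 4.26 over all genes. Initiation and elongation factor genes were close to the core, with median lengths of 1183.5 and 1147 bp and −log10 q percentiles of 89.3 and 90.9. Genes of other TOP mRNAs, with percentiles of 93.6 and 96.3, stood above it. The mitochondrial ribosomal protein genes had shorter peaks, with medians of 956.5 and 1021.5 bp, and higher fold enrichment, with medians of 4.56 and 4.86.

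Small subunit genes had a median wt length of 1279.5 bp and large subunit genes 1105 bp. In ΔIkE120 these medians were 1194 and 1167 bp, so the subunits lay closer together there. The longest wt peak was at *Rpl7*, which encodes a large subunit protein, with 2487 bp in wt and 1763 bp in ΔIkE120. *Rpl30*, whose protein also belongs to the large subunit, had 2147 and 2303 bp. *Rps19*, the gene most often mutated in Diamond-Blackfan anaemia, had 1999 and 1894 bp, and *Rps13*, of the small subunit, had 1952 and 1847 bp. These peaks lay across the start and reached about as far upstream as downstream, except at *Rpl7*, where the wt peak began 1789 bp upstream. The last of the 5 longest, *Rpl36a*, is on the X chromosome and is described with the length ratios.

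The peaks lay mostly on the transcribed side of the start. Of the bases that peaks covered within 1 kb on either side, the median share downstream was 69.4% over the members in wt and 70.5% in ΔIkE120. Over the core it was 69.5% and 71.7%, over all genes with a peak 64.2% and 65.8%, and over the mitochondrial ribosomal protein genes 58.7% and 60.9%. In wt, 22 of 74 core genes (29.7%) had at least 90% of the covered bases downstream, against 26.5% of all genes, and in ΔIkE120 22 of 73 (30.1%) against 28.0%. The share with more bases upstream than downstream was smaller in the core, at 10 genes in wt (13.5% against 24.1%) and 7 in ΔIkE120 (9.59% against 22.6%). At least 90% downstream was more frequent in large subunit genes, 17 of 44 in wt and 16 of 43 in ΔIkE120, than small subunit genes, 5 and 6 of 30. The large subunit counts include *Rpl22* and, in wt, *Rpl19*, which have transcript starts far inside the gene. From those starts the wt share was 79.3% at *Rpl22*, and 61.7% and 47.5% at *Rpl19*. *Rpl38*, another such gene, stayed at 100% in wt.

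The far edge of the peak lay further downstream in the core than over all genes, though genes of other TOP mRNAs were close to the core in wt. The nearest peak ended a median of 980.5 bp downstream of the start over the core in wt and 1026 bp in ΔIkE120. Over all genes with a peak it ended at 744 and 741 bp, over the factor genes at 820 and 866 bp, and over the mitochondrial ribosomal protein genes at 612 and 651.5 bp. Genes of other TOP mRNAs, with 964 bp in wt and 918 bp in ΔIkE120, and the T precursor markers, with 939 and 916 bp, were nearer to the core. At 500 bp downstream, peaks covered 94.6% of the core genes with a peak in wt and 95.9% in ΔIkE120, and 79.1% and 79.2% of all genes with a peak. At 1000 bp downstream they covered 45.9% of the core in wt and 61.6% in ΔIkE120, while all genes were at 26.7% and 27.1%. At 1500 bp the core was at 5.41% and 4.11%, below the 8.49% and 8.23% of all genes. Core peaks thus mostly ended between 500 and 1500 bp into the gene, although the genes are short: their median length was 3175 bp, against 17261.5 bp for all genes.

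**Figure D2:**
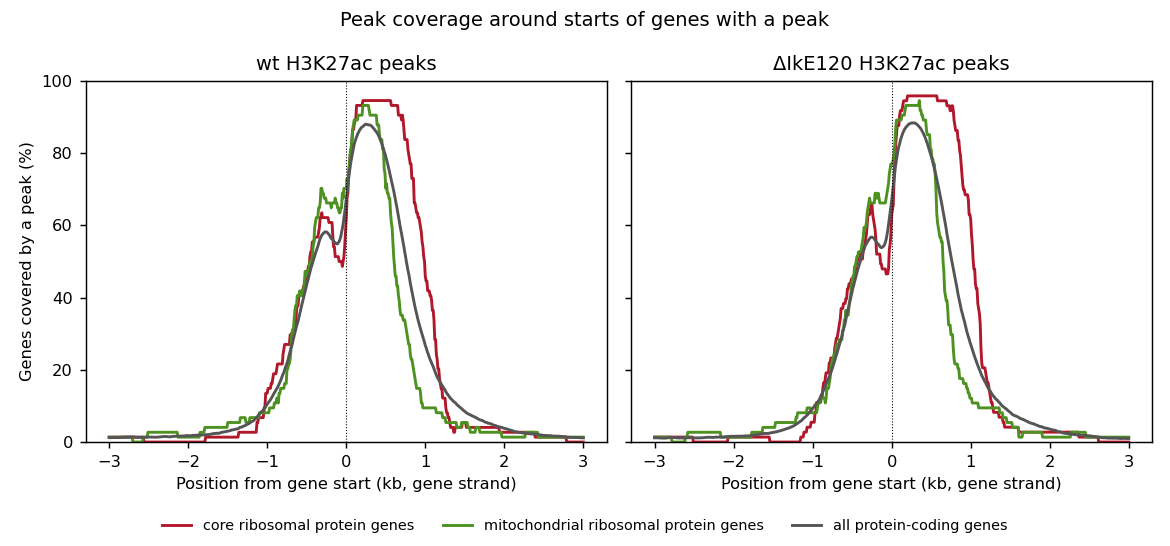
Share of genes with a peak within 1 kb of the start that a peak covers at each position from 3 kb before to 3 kb after the start (x axis in kb, y axis in percent), for core ribosomal protein genes, mitochondrial ribosomal protein genes and all protein-coding genes, in wt (left) and ΔIkE120 (right). The core curve stays above the others between about 500 and 1000 bp downstream, where it is at 94.6% and 45.9% in wt.

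At the start itself the core was covered no more often than other genes. A peak lay over the start in 46 of 74 core genes in wt (62.2%) and 46 of 73 in ΔIkE120 (63.0%), against 67.3% and 66.9% of all genes with a peak. The upstream edge of the nearest peak fell within 100 bp of the start at 29 core genes in wt (39.2%) and 32 in ΔIkE120 (43.8%), against 30.7% and 31.6% of all genes. At *Rplp0*, which encodes a protein of the ribosomal stalk, the wt peak ran from the start to 977 bp downstream and the ΔIkE120 peak from 26 to 855 bp downstream. *Rpl11* and *Rpl5* encode proteins that bind Mdm2 when ribosome assembly fails. The *Rpl11* peak ran from 4 bp upstream to 1214 bp downstream in wt and from 14 bp upstream to 1087 bp downstream in ΔIkE120. The *Rpl5* peak ran from 23 to 1075 bp downstream in wt and from 3 bp upstream to 1012 bp downstream in ΔIkE120. In these 3 genes the peak began within 26 bp of the start in both lists.

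In other genes a gap over the start divided a peak on each side. This held for 10 core genes in wt (13.5%) and 11 in ΔIkE120 (15.1%), close to the 12.1% and 11.7% of all genes with a peak. A gap upstream of the start was seen at *Rps6* and *Rpsa*, where the main peak covered the start. *Rps6*, which encodes the protein that S6 kinases phosphorylate, had its main peak from 18 bp upstream to 1089 bp downstream in wt and from 34 bp upstream to 1126 bp downstream in ΔIkE120. A weaker peak lay further upstream, of 297 bp in wt and 342 bp in ΔIkE120. The main *Rps6* peak was among the strongest, with 34.3 (wt) and 30.8 (ΔIkE120) for −log10 q, percentiles 99.6 and 99.0 of the lists. *Rpsa*, which encodes a small subunit protein also known as the laminin receptor, had a peak of 1322 bp from 18 bp upstream in wt and of 897 bp from 11 bp upstream in ΔIkE120, with a separate upstream peak in each list.

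Peaks with lengths between the quartiles of the core lay over the starts of *Rpl32* and *Rps26* in both lists. *Rpl32*, the reference gene of the study's quantitative PCR, lies on chromosome 6 with its start at 115808743 on the minus strand. Its peak ran from 322 bp upstream to 958 bp downstream in wt (1281 bp) and from 332 bp upstream to 1120 bp downstream in ΔIkE120 (1453 bp). At *Rpl32* the wt peak had a fold enrichment of 4.85 and the ΔIkE120 peak 4.63, and the −log10 q was 22.7 and 24.1, at percentiles 96.8 and 96.7. *Rps26*, another gene mutated in Diamond-Blackfan anaemia, had a peak of 1277 bp in wt and 1177 bp in ΔIkE120, with 77.0% and 73.1% of the covered bases downstream. Both genes had similar peaks in the lists of both genotypes.

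The position of other genes went with the side of the peak. At 16 core genes (20.8%, against 11.7% of all genes) another gene began within 1 kb upstream on the opposite strand. The 11.7% is over genes with and without a peak. This share was 37.2% for mitochondrial ribosomal protein genes and 22.5% for factor genes. It was 26.7% for genes of other TOP mRNAs and 52.9% for ribosome biogenesis genes, so it was not particular to the core. Of the 16 core genes, 14 had a peak in each list (87.5%, against 81.7% of all genes with such a neighbour in wt and 81.5% in ΔIkE120). Over these 14, a median of 62.3% of the covered bases was downstream in wt and 64.2% in ΔIkE120. At core genes without such a neighbour the medians were 74.1% and 73.1%. The median position of the upstream edge of the nearest peak was -459.5 bp in wt and -392.5 bp in ΔIkE120 with a neighbour, and -22 and -20 bp without a neighbour (negative values are upstream). Over all genes with a peak, the downstream share was 50.9% with and 69.4% without a neighbour in wt, and 50.6% and 71.1% in ΔIkE120. With a neighbour, core genes thus had more of the covered bases on their own side than all genes had. *Rpl36al*, a paralog of *Rpl36a* that begins 91 bp from *Mgat2*, had a peak from 1021 bp upstream to 692 bp downstream in wt and from 977 bp upstream to 713 bp downstream in ΔIkE120.

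Introns of ribosomal protein genes often carry small nucleolar RNAs, which guide the modification of ribosomal RNA. Such a gene lay within 30 of the 77 core genes (39.0%, against 1.71% of all genes), and 59 lay in the core in all. Of the 30 hosts, 28 had a peak in each list, with a median length of 1175 bp in wt and 1283.5 bp in ΔIkE120. The 47 other core genes had medians of 1212.5 and 1161 bp. The order of the medians differed between the lists, so the hosts did not stand apart by peak length. At least 90% of the covered bases lay downstream in 5 of 28 hosts in wt and 3 in ΔIkE120, and in 17 of 46 and 19 of 45 of the other genes.

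The median peak of the 4 X-linked core genes was weaker than that of the autosomal core. They are *Rpl10*, a large subunit gene mutated in some T cell leukaemias, *Rpl36a* and *Rpl39* of the large subunit, and *Rps4x* of the small subunit. *Rpl39* was named after its values were seen. All 4 had a peak in both lists, as had 27.8% of all X-linked genes, and their median −log10 q was 5.24 (wt) and 6.00 (ΔIkE120), against 16.9 and 19.4 over the autosomal core. Over all genes with a peak the X-linked medians, 6.82 in wt and 7.17 in ΔIkE120, were also below the autosomal ones, 12.2 and 12.6. Fold enrichment differed less, with X-linked core medians of 3.28 and 3.55 against 4.32 and 4.44 on autosomes. Over all genes, the X-linked medians for fold enrichment, 4.26 and 4.48, were above the autosomal ones, 4.11 and 4.25.

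The *Rpl10* peak of 428 bp in wt (5.59 for −log10 q, as in the brackets below) and 470 bp in ΔIkE120 (4.72) lay 140 and 103 bp downstream of the start, and a longer peak lay upstream, of 1195 bp in wt and 1027 bp in ΔIkE120. *Rpl39* had a peak across the start of 1875 bp in wt (4.89) and 1789 bp in ΔIkE120 (6.87). *Rps4x* had 2 peaks in wt, of 374 bp upstream (1.30) and 988 bp downstream (6.88), and 1 of 1068 bp downstream in ΔIkE120 (10.7). At *Rps4x* in wt the upstream peak was the nearer, at 95 bp, and was at percentile 1.27 of the wt list by −log10 q.

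Peak lengths at the members were similar in the lists of the 2 genotypes. The ratio of the ΔIkE120 to the wt length had a median of 1.02 over the 78 members with a peak in both (quartiles 0.940 and 1.13), and 0.989 over the 9336 genes with a peak in both. The ΔIkE120 peak was longer at 43 members and shorter at 35 (55.1% longer, against 46.1% of all genes). At 5 members (6.41%) it was at least 1.5 times longer, against 6.24% of all genes, and at 4 (5.13%) at least 1.5 times shorter, against 7.63%. Both shares were near those of all genes. The median ratio was 1.07 over the large subunit genes and 1.00 over the small subunit genes. Across the 78 members, Spearman's rho between the wt and ΔIkE120 lengths was 0.687, and across all 9336 genes 0.774. These are correlations across genes, which are not independent replicates.

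The caller's values were more often higher in ΔIkE120 than the lengths were. The −log10 q was higher in ΔIkE120 than in wt at 63 of 78 members (80.8%), against 53.0% of all genes with both peaks. Fold enrichment was higher at 57 (73.1%), against 61.8%. For −log10 q, the share was 60.8% at mitochondrial ribosomal protein genes and 64.5% at factor genes. It was 66.7% at genes of other TOP mRNAs and 75% at ribosome biogenesis genes. These shares lay between those of all genes and the members. For fold enrichment, factor genes (71%) and mitochondrial ribosomal protein genes (66.2%) also lay between. Ribosome biogenesis genes (56.2%) and genes of other TOP mRNAs were below all genes. The members' median percentile by −log10 q was 90.5 in wt and 92.4 in ΔIkE120, while that of all genes with a peak was 83.7 and 81.9. By fold enrichment the members' median was 86.2 and 85.0, and that of all genes 83.6 and 81.7. With 1 library per genotype, these differences were not tested.

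**Figure D3:**
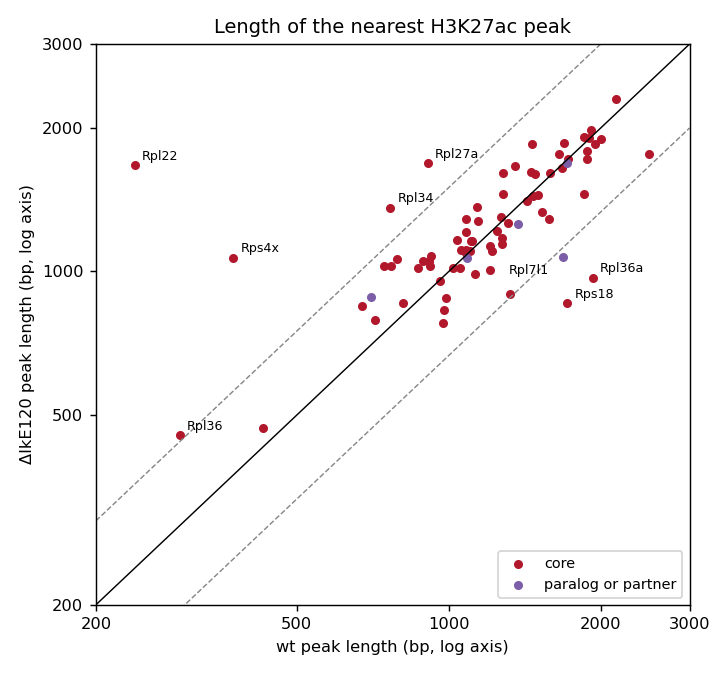
Length of the peak nearest to the start in wt (x axis) and ΔIkE120 (y axis), in bp on log axes, for members with a peak in both lists; the solid line marks equal lengths and the dashed lines a ratio of 1.5 in each direction. The labelled genes lie beyond the dashed lines, from *Rps18* with a ratio of 0.501 to *Rpl22* with 6.99.

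The largest length ratios often came with a different number of peaks, at members and over all genes. Among the 9 members past 1.5, 7 had 1 peak within 1 kb in 1 list and 2 in the other (77.8%). The number of peaks differed at 52.5% of the 1295 genes past 1.5, and at 12.3% of all genes with a peak in both lists. Counted as all bases covered within 1 kb, 7 of the 9 ratios lay within 1.5, as did 61.7% of those of all genes past 1.5 by length. The 7 include *Rpl22*, whose peaks began 959 bp (wt) and 950 bp (ΔIkE120) downstream. Only 42 and 51 of its bases were counted, so this ratio cannot show its difference in length. By covered bases, 0 members were above 1.5 and 3 were below its inverse (3.85%), against 2.82% and 4.54% of all genes. The 3 were *Rps27l*, with 221 bases in wt and 68 in ΔIkE120 (0.308), *Rpl36* and *Rpl7l1*. The *Rps27l* peaks began 780 bp (wt) and 933 bp (ΔIkE120) downstream of the start, so the limit of 1 kb cut them. In full they were 1372 and 1259 bp long, a ratio of 0.918, with 14.3 and 16.7 for −log10 q. *Rps18*, of the small subunit, had 1 peak of 1716 bp in wt and a nearest peak of 859 bp with a separate upstream peak of 695 bp in ΔIkE120. In all, wt peaks covered 1715 bases there and ΔIkE120 peaks 1554, which is 0.906 times as many. *Rpl36a* had 1 peak of 1930 bp in wt and 2 of 970 and 515 bp in ΔIkE120, with 1797 and 1423 bases covered.

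In the other direction, *Rpl27a* and *Rpl34*, both of the large subunit, had 2 peaks in wt and 1 in ΔIkE120. The nearest *Rpl27a* peak was 908 bp in wt and 1688 bp in ΔIkE120, a ratio of 1.86, while the covered bases were 1489 and 1687. The nearest *Rpl34* peak was 765 and 1360 bp, a ratio of 1.78, with 1262 and 1359 bases covered. *Rps4x* also had 2 peaks in wt and 1 in ΔIkE120, with a length ratio of 2.86 and 1247 and 953 bases covered. At *Rpl27a*, *Rpl34* and *Rps4x* the covered bases thus differed less between the lists than the nearest peak did.

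*Rpl7l1*, *Rpl36* and *Rpl22* were past 1.5 too. *Rpl7l1*, a paralog of *Rpl7*, had 1 peak in each list, of 1680 bp in wt and 1070 bp in ΔIkE120, a ratio of 0.637 by length and by covered bases. At *Rpl36*, of the large subunit, the wt list had a peak of 293 bp over the start and 1 of 551 bp upstream, and within 1 kb the ΔIkE120 list had only an upstream peak, of 454 bp, so that wt peaks covered 843 bases and ΔIkE120 peaks 454. Stronger *Rpl36* peaks lay 3320 bp downstream in wt (707 bp) and 3300 bp downstream in ΔIkE120 (978 bp). At *Rpl22* the ratio was 6.99, the highest of the members. Its nearest wt peak was 239 bp long and lay 959 bp downstream of the gene start, and a wt peak of 1410 bp followed at 1377 bp. A ΔIkE120 peak of 1670 bp ran from 950 to 2619 bp downstream, over the nearest wt peak and most of the other, which ended at 2786 bp.

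The core genes without a peak at the start had a peak further downstream. At *Rpl18*, of the large subunit, the nearest peak began 2149 bp downstream of the start in wt (1252 bp long) and 2110 bp in ΔIkE120 (1401 bp). At *Rps2*, which encodes a small subunit protein near the mRNA entry, it began 1462 bp downstream in wt and 1371 bp in ΔIkE120, with another, longer peak of 864 and 733 bp behind it. At *Rpl17*, of the large subunit, it began 1161 bp downstream in wt and 1010 bp in ΔIkE120, just past the limit of 1 kb, and was 1286 and 1386 bp long. *Rpl19*, of the large subunit, was the only member with a peak in 1 list and not in the other. Its wt peak of 427 bp, 710 bp downstream, had a fold enrichment of 1.84 and a −log10 q of 2.33. A far stronger *Rpl19* peak began 4132 bp downstream in wt (1504 bp, −log10 q of 35.8) and 4109 bp in ΔIkE120 (1529 bp, 34.3).

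Just inside the limit lay *Rpl22*, at 959 bp in wt and 950 bp in ΔIkE120, and the peaks of *Rps27l* and *Rpl38*. *Rps27l*, a paralog of *Rps27* that p53 induces, had peaks from 780 bp in wt and 933 bp in ΔIkE120. *Rpl38*, which is required for the translation of Hox mRNAs in the mouse embryo, had peaks from 798 and 757 bp, of 1586 and 1608 bp.

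Several of these genes have transcript starts inside the RefSeq gene. The RefSeq promoter table of GRCm38.p6, which gives the bases from 250 before to 50 after each transcript start, had entries for 69 of the 89 members, with 81 windows. The table places a start 2604 bp downstream of the gene start at *Rpl18*, 1942 bp at *Rps2*, 4707 and 4921 bp at *Rpl19*, 0 and 1290 bp at *Rpl22*, 762 bp at *Rpl38*, and 1462 and 1789 bp at *Rps27l*. The *Rpl18* peak covered this transcript start in both lists, as the strong *Rpl19* peak covered both of its starts. At *Rps2* the longer peak began 40 bp after the transcript start in wt and 67 bp in ΔIkE120. At *Rpl22* the wt peak of 1410 bp began 87 bp after the start at 1290 bp, and the ΔIkE120 peak covered it. Measured from the table's starts where a gene had an entry, a choice made after seeing the data, 81 of 89 members had a peak in each list (91.0%), against 46.6% of all genes in wt and 46.1% in ΔIkE120. The core genes were then all counted except *Rpl17*, which had no entry in the table.

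Besides *Rpl17*, the 7 members without a peak by either start were paralogs or copies. *Rpl10l* and *Rpl39l*, the paralogs of the X-linked *Rpl10* and *Rpl39* that are expressed in male germ cells, had their nearest wt peaks 58536 and 115317 bp from the start. In ΔIkE120 these distances were 58218 and 115966 bp. *Rpl3l*, the paralog of *Rpl3* in skeletal and heart muscle, had its nearest wt peak, of 238 bp, 3122 bp downstream and its nearest ΔIkE120 peak, of 565 bp, 3525 bp upstream. *Rpl32l* was at 2627 and 2866 bp, and *Rpl37rt* at 8604 and 8608 bp. *Rps23rg1* was 51229 bp from a wt peak and 51290 bp from a ΔIkE120 peak, and *Rps27rt* 22061 and 48824 bp. By the RefSeq gene start the 7 genes thus lay more than 2.5 kb from any peak of either list, while the 5 paralogs and partners with a peak were *Rpl22l1*, *Rpl36al*, *Rpl7l1*, *Rps27l* and *Rps19bp1*. At *Rpl22l1*, the paralog of *Rpl22*, the peak was 700 bp in wt and 884 bp in ΔIkE120, with 96.0% and 93.3% of the covered bases downstream. *Rps19bp1*, which encodes a binding partner of the *Rps19* protein, had a peak of 1086 and 1066 bp centred on the start.

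Promoter sequences of the core differed from those of other genes in several short motifs. Shares are of the 67 windows of 57 core genes, against 21263 windows of protein-coding genes, and a match is a description of letters only. The TOP tract was searched as a C within 5 bases of the transcript start followed by at least 5 C or T, on the gene's strand, and was found in 26 core windows (38.8%, against 9.95%), of 25 genes. Among them were *Rps6*, *Rps26*, *Rps18*, *Rpl27a*, *Rpl34* and *Rpl38*. TCTTT within 5 bases of the start, which may overlap the tract, was found in 13.4% against 1.27%. On both strands of the whole window, CCGGAAG, the core of ETS factor sites, was found in 37.3% against 11.6%. AANATGGC, a form of the YY1 motif, was found in 22.4% against 6.37%, and AAGATGGC, which is a case of it, in 10.4% against 3.05%. Windows of the same gene can overlap and repeat a site, as at *Rpl35a*. By gene, the core shares were 19.3% (11 genes) for AANATGGC and 8.77% (5 genes) for AAGATGGC. GGGCGG, bound by Sp1, was found in 61.2% against 46.2%. From 40 to 15 bases before the start on the gene's strand, TATAA was found in 5.97% against 4.42% and TATAAA, which contains it, in 0% against 2.62%. In the 75 windows of mitochondrial ribosomal protein genes, CCGGAAG (34.7%) and AANATGGC (28.0%) were about as frequent as in the core, and the TOP tract (5.33%) was not.

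Sequences are shown for 6 of the exceptions. They are 3 core genes, with a transcript start within 67 bp of a peak in both lists, and 3 paralogs, with no peak within 1 kb. Each line gives 60 bases before and 20 from the transcript start on, from RefSeq on GRCm38.p6, on the gene's strand, with the TOP tract in capitals where found. *Rpl18* lies at chr7:45718011-45718090 (plus strand) and *Rps2* at chr17:24720003-24720082 (plus). *Rpl19* lies at chr11:98026650-98026729 (plus, the start at 4707 bp). *Rpl10l* lies at chr12:66284382-66284461 (minus), *Rpl39l* at chr16:10170168-10170247 (plus) and *Rpl3l* at chr17:24727766-24727845 (plus).
Rpl18: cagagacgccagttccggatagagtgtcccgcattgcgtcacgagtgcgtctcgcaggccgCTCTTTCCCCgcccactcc
Rps2: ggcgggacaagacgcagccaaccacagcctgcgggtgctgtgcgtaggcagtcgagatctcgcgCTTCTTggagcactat
Rpl19: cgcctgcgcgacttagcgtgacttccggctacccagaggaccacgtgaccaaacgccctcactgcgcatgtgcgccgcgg
Rpl10l: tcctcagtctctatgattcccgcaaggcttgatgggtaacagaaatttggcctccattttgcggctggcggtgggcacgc
Rpl39l: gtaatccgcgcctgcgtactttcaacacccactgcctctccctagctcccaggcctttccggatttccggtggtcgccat
Rpl3l: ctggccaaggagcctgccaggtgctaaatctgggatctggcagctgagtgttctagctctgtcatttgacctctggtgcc

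The tract of *Rpl18* was 10 bases long and that of *Rps2* 6 bases. By this search no tract was found in the windows of *Rpl19*, *Rpl10l*, *Rpl39l* or *Rpl3l*. Of the 4 other paralogs without a peak, *Rpl32l*, *Rps23rg1* and *Rps27rt* had a tract and *Rpl37rt* had none, so the tract was present with and without a peak. CCGGAAG was found in the windows of *Rps2*, *Rpl39l* and the *Rpl19* start shown, so that it was present with and without a peak at the start.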

How the data were processed

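H3K27ac ChIP-seq of wt and ΔIkE120 P5424 cells gave 1 library each, deposited as 1 list of broad peaks per library. Each list has 9 columns. Per the file contents, the deposited score is 10 times the −log10 q-value, cut to a whole number, and the authors' peak caller also gave a fold enrichment, a −log10 p-value and a −log10 q-value per peak. The methods do not name the caller or its threshold for these lists; the submitters' processing notes name GRCm38, Bowtie2 2.3.4.3, Bowtie 1.0.0, deepTools 3.2.1 and MACS2 2.1.1 without saying which made which file. The 4C data of the series were not used here.

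Gene starts were the 5′ ends of RefSeq genes on GRCm38, with the strand from the RefSeq promoter table (17492 genes) or else from GENCODE M1 by symbol (4044 genes, 20 of them members). For each start, the nearest peak of each list was taken if it came within 1 kb, and covered bases were counted on each side. Percentiles are ranks among all peaks of a list. The search was checked against an exhaustive one on simulated lists. With 1 library per genotype, no test was run. Members and lists were chosen with earlier results of these data known. Named were members lacking a peak, the 5 longest and 5 shortest wt peaks, the 4 highest and 4 lowest length ratios, and 20 genes listed for their roles; *Rpl39* was added after its values were seen. Some genes of these lists are not reported here. Alternatives were other distances (500 bp, 2.5 kb), stricter or equal-sized peak sets, core members only, covered bases, joined peaks and, added later, transcript starts. Software was matplotlib 3.10.9, scipy 1.17.1, pandas 2.3.3 and numpy 2.4.6 under Python 3.11.15.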

Additional observations from a re-analysis of the deposited data

How the results depend on the processing

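Of 52 values recomputed under other settings, 49 stayed close to the main value and 3 did not. Close meant within 1.5 times the main count or within the 95% order-statistic interval of the median over the members. With 89 members no count could rise past this limit, and a wider distance or joined peaks could not lower a count. The tally was thus partly fixed in advance and does not measure robustness. The intervals run over genes, which are not independent replicates. The median downstream share in wt was 59.1%, beside 69.4% in the main setting, when only 500 bp on each side were counted, where a window of that size leaves out the far part of the peaks. The median length was 1474 bp in wt and 1451 bp in ΔIkE120, beside 1206 and 1172 bp, when peaks less than 500 bp apart were joined, which lengthens peaks by construction; the median length ratio was then 1.00. Over all 89 members, the number with a wt peak ranged from 75 within 500 bp to 82 within 2.5 kb, and with a ΔIkE120 peak from 75 to 81; with the 77 core members only, it was 74 and 73. From transcript starts, chosen after seeing the data, both were 81. The median length ratio lay between 1.00 and 1.02 under all settings. With 1 library per genotype no replicate could be left out, and no paired analysis was possible because there is 1 library per group. Depth is unknown, so a peak that is missing from a list may lie below its threshold. Gene starts depend on the annotation, as the genes with transcript starts further downstream show, and 20 members had no transcript start in the table.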

Other observations

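Peak lengths varied among other genes that take part in translation. Over the 15 genes of other TOP mRNAs, the nearest peak had a median of 1218 bp (wt) and 1270 bp (ΔIkE120), with medians of 72.7% and 78.7% of the covered bases downstream, and a median length ratio of 0.987. *Eef1a1* had 1218 and 1329 bp, *Eef2* 850 and 912 bp, and *Npm1* 620 and 582 bp. Of the genes outside the rule that encode ribosomal or ribosome-bound proteins, *Fau* had 535 and 614 bp and *Rack1* 1963 and 1792 bp.

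Over the 16 ribosome biogenesis genes with a peak in both lists, the medians were 1040.5 bp (wt) and 1186 bp (ΔIkE120), with 53.8% and 62.3% of the covered bases downstream. The highest length ratio of this list, 3.06, was at *Nip7*, which encodes a factor of pre-ribosomal RNA processing, with 461 and 1412 bp. The lowest, 0.265, was at *Bop1*, which encodes a factor of large subunit assembly, with 1067 and 283 bp. *Ncl*, the gene of nucleolin, had 783 and 1176 bp. These genes were named after their values were seen.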
